A study of Mus musculus with 8 samples.

Results

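The quantity described here is the difference between the transcriptional response of mouse epidermis to tumour promotion and its response to tumour initiation. For each gene it is the change from acetone to DMBA/TPA minus the change from acetone to DMBA, on the log2 scale. It uses 8 of the 8 libraries of the study, in 4 groups of 2. DMBA (7,12-dimethylbenz[a]anthracene) is a carcinogen that mutates keratinocyte DNA, and TPA (12-O-tetradecanoylphorbol-13-acetate) is a phorbol ester, an activator of protein kinase C, under which the epidermis thickens. The DMBA group received 100 µl of DMBA at 1 mg/ml once on the back, and its skin was taken on day 10. The DMBA/TPA group received the same single DMBA dose and then TPA, given at 0.1 mg/ml 2 times each week, and its skin was taken on day 52. Each treated group has its own acetone group, labelled Control DMBA and Control DMBA/TPA. All 4 groups were wild-type FVB mice given as 7 to 8 weeks old, and RNA came from dorsal epidermis peeled from the dermis with Dispase. This age is not tied here to the start or to the harvest, so the groups are not taken as age-matched at harvest. The labels give no harvest day for the acetone groups and do not say that the 2 libraries of a group are separate animals. P-values therefore rest on library-to-library spread, some or all of which may be technical. Agent, number of applications and time in the experiment differ together between the treated groups and cannot be told apart.

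In the initiation and promotion scheme, a carcinogen leaves mutated keratinocytes in a skin that looks normal, and repeated promoter treatment then drives hyperplasia, inflammation and papilloma growth. Keratinocytes normally move from a basal layer through spinous and granular layers to the cornified layer, where small proteins are crosslinked into an envelope and lipids seal the barrier. Thickened or wounded epidermis switches on a separate set of keratins, small proline-rich proteins, alarmins and cytokines. Mouse epidermis also holds resident γδ T cells, Langerhans cells, melanocytes and hair follicles, and follicles pass through cycles of growth and rest.

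The difference has an arithmetic that decides how each value is read. It equals the direct change from the DMBA to the DMBA/TPA group minus the gap between the acetone groups, where the gap is Control DMBA/TPA minus Control DMBA. A gene that is equal in both treated groups therefore gets a difference if its acetone groups lie apart. The 5 contrasts come from the same fit and share libraries, so none is independent of another, and the gap is given beside the differences. Throughout, "higher" or "lower" of the difference means that the gene passed edgeR's quasi-likelihood F test at a Benjamini-Hochberg adjusted p under 0.05 over 19450 genes. Values per library are CPM, that is counts divided by the scaled library total in units of 1e+06.

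Total gene counts ran from 26300400 to 36002886 per library, 35.2% to 43.4% of the summed total of each table. The DMBA/TPA libraries had the largest shares of reads not aligned, 9.82% and 16.4%, against 3.80% to 7.47% in the other libraries. On the first principal component, which held 55.8% of the variance, the Control DMBA and DMBA libraries lay between -13.6 and 8.84. The Control DMBA/TPA libraries lay at -90.1 and -84.1 and the DMBA/TPA libraries at 81.5 and 109, so the acetone groups were far apart. The 2 DMBA/TPA libraries also differed more from each other than those of any other group, with a chi-square of 71.9 per degree of freedom against 12.0 to 35.3.

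Of the 19450 genes, 2460 (12.6%) were called in the difference, 1692 of them higher (8.70%) and 768 lower (3.95%). The shares of 8.70% and 3.95% are the background for every list count below. In the same fit, 7917 genes (40.7%) were called in the DMBA/TPA response and 52 (0.267%) in the DMBA response. After DMBA/TPA 22.4% rose and 18.3% fell, and after DMBA 0.190% rose and 0.0771% fell. The gap between the acetone groups gave 1217 calls (6.26%), 384 higher (1.97%) and 833 lower (4.28%) in Control DMBA/TPA. The direct change gave 2834 calls (14.6%), 8.90% of all genes higher and 5.67% lower in DMBA/TPA. The median standard error was 0.30 for the difference and 0.21 for each response (log2).

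Most of the called genes took their difference from the DMBA/TPA side. Among the 1692 higher genes, 1655 were also called higher in the DMBA/TPA response, and the median change was 2.06 after DMBA/TPA and -0.07 after DMBA. Among the 768 lower genes, 717 were called lower after DMBA/TPA, with medians of -1.16 and -0.01. In 19 of the lower genes the DMBA response was itself called higher. The median gap was -0.85 in the higher genes and 0.50 in the lower genes, against -0.02 over all genes tested. The gap therefore had the sign that enlarges the difference in both sets. It was larger in size than the direct change in 729 of the higher genes (43.1%) and 260 of the lower genes (33.9%), against 45.5% of all genes. In 823 higher (48.6%) and 379 lower genes (49.3%) the direct change was called and the gap was not. In 360 higher (21.3%) and 113 lower genes (14.7%) it was the gap that was called and not the direct change. Over all genes tested, the direct change was called in 14.6% and the gap in 6.26%. A called difference favours genes with a large term, so these splits are no separate result. In 86 higher and 12 lower genes the direct change had the opposite sign.

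**Figure D1:**
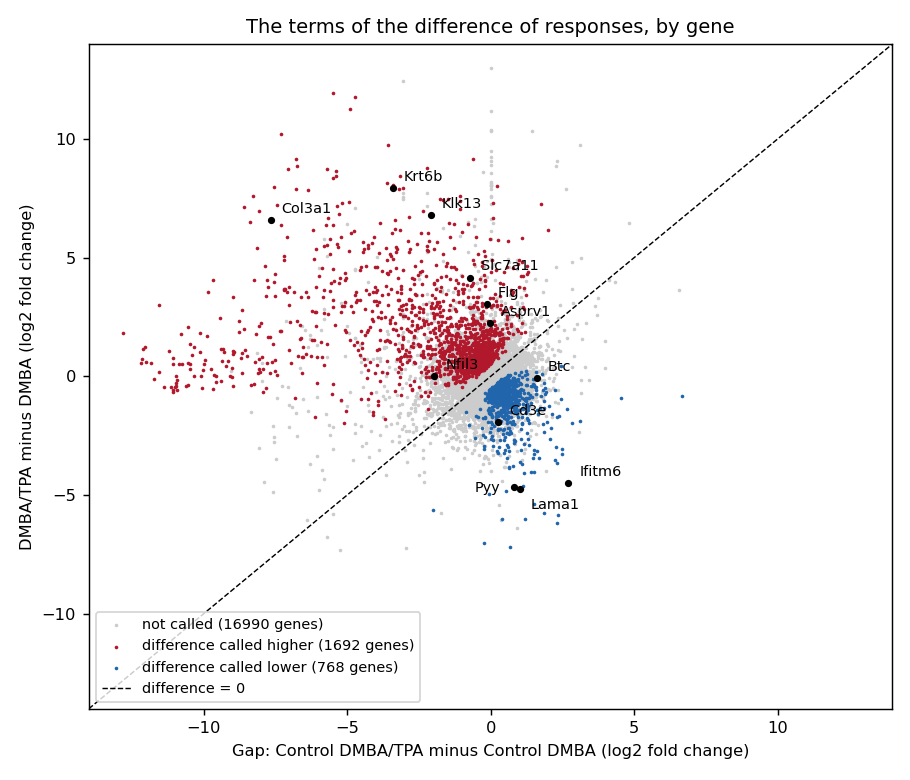
Each point is 1 of the 19450 genes, with the gap between the acetone groups on the horizontal axis and the direct change from DMBA to DMBA/TPA on the vertical axis, both as log2 fold changes. The dashed line marks a difference of 0, the 1692 genes called higher lie above it and the 768 called lower lie below it; Nfil3 and Btc sit near a direct change of 0, while Flg and Asprv1 sit near a gap of 0.

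Genes of cornification had positive differences. Flg (ENSMUSG00000102439, chr3:93273523-93293686, mm10) encodes filaggrin, which bundles keratin filaments in the granular layer. Its level was 240.1 and 498 CPM in Control DMBA, 552 and 516 with DMBA, 354 and 320 in Control DMBA/TPA, then 4338 and 4498 with DMBA/TPA. The DMBA/TPA libraries stood far above the other 6, among which the DMBA pair lay slightly above both acetone groups. The difference was 3.18 ± 0.40 (log2, SE, n = 2 per group; edgeR adjusted p = 0.00505), with a gap of -0.13 ± 0.28.

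The same shape held for enzymes of this programme. Asprv1 (chr6:86628164-86629710), the retroviral-like protease that processes profilaggrin, was at 289.8 and 356 CPM in Control DMBA, 362 and 342 with DMBA, 328 and 309 in Control DMBA/TPA, then 1548 and 1757 with DMBA/TPA. Its difference was 2.25 ± 0.19 (edgeR adjusted p = 0.00233) beside a gap of -0.02. Casp14, the caspase of terminal keratinocyte differentiation, ranged from 55.2 to 102 CPM in the 6 other libraries and was at 632 and 627 in DMBA/TPA. The difference of Casp14 was 3.03 ± 0.31 and its gap -0.28. Klk8, a kallikrein protease, had a difference of 3.11 ± 0.43 with a gap of -0.13. Klk13, another kallikrein, had a larger difference of 8.85 ± 0.69, with a gap of -2.07.

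Of 36 measured genes of the cornified envelope, 24 were higher and 0 lower in the difference, against 8.70% and 3.95% of all genes. Their median was 5.99 for the difference, -0.01 for the DMBA response, 6.63 for the DMBA/TPA response and 0.00 for the gap. The gap was called higher in 7 of the 36 and lower in 3, against 1.97% and 4.28% of all genes, so its median holds members of both signs. In 11 of them a group held under 3 counts, and with such groups set to 3 counts the median difference was 4.98. Of 25 proteases and crosslinking enzymes of cornification, 19 were higher and 0 lower, with a median difference of 3.11 and a median gap of -0.28. Over all genes tested the medians of the difference and the gap were 0.00 and -0.02. Without 1 library the higher counts ran from 15 (without DMBA 2) to 26 (without DMBA/TPA 1) for the envelope and from 12 (without DMBA 2) to 20 (without DMBA/TPA 1) for the enzymes.

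Among the late cornified envelope genes, a cluster on chromosome 3 that encodes small crosslinked proteins, the gap took either sign. Lce1f was at 3.40 and 4.90 CPM in Control DMBA, 3.81 and 4.32 with DMBA, 6.38 and 7.77 in Control DMBA/TPA, then 95.8 and 98.2 with DMBA/TPA. The acetone groups of Lce1f did not overlap, and its gap of 0.77 ± 0.19 was called (adjusted p = 0.0489), so its difference of 3.80 ± 0.26 (edgeR adjusted p = 0.00181) was smaller than the direct change of 4.57. Lce1d behaved alike, with a difference of 3.38 ± 0.28 and a gap of 1.28. For Lce1g the difference was 6.37 ± 0.47 and the gap -0.51. The Lce3 genes, which are known from wounded epidermis, were close to absent outside DMBA/TPA. Lce3b had 12 counts in all in Control DMBA, 0 in DMBA, 0 in Control DMBA/TPA and 786 in DMBA/TPA; Lce3b and the other Lce3 genes named here were chosen after their values were seen. Lce3e had 0, 1, 0 and 685 counts in the same order and was not called (adjusted p = 1.00), as the fit gives no usable error with both acetone groups at 0. Lce and Sprr2 genes have near-identical neighbours, so reads could be split between copies and single members are uncertain.

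Some barrier genes were not called. Lor, the loricrin gene, had a difference of 0.60 ± 0.28 (adjusted p = 0.176) beside a called gap of 1.04. Krt10, the main keratin of the spinous layer, ranged from 6581 to 11190 CPM over the 8 libraries, and its difference was 0.01 ± 0.33 (adjusted p = 0.989) with a gap of 0.23. Its partner Krt1 missed the threshold narrowly, with a difference of 1.20 ± 0.33 (adjusted p = 0.0503) and a gap of -0.02; it was called in 8 of 17 alternatives, 1 acetone group among them (adjusted p = 0.0312). Of 21 genes of barrier lipid synthesis, 12 were higher and 1 lower, against 8.70% and 3.95% of all genes. The median difference of the list was 0.97 and its median gap 0.29. Smpd1, the acid sphingomyelinase that makes ceramide, rose from 55.8 to 57.6 CPM in Control DMBA/TPA to 121 and 171 in DMBA/TPA and was at 41.2 to 55.8 in the Control DMBA and DMBA libraries. The difference of Smpd1 was 1.67 ± 0.23 (edgeR adjusted p = 0.00616) and the gap 0.14. Without Control DMBA/TPA 1 or without Control DMBA/TPA 2 the higher count of the lipid list was 2, and without DMBA/TPA 1 it was 14.

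The promoters of 3 envelope genes are shown because AP-1, the Jun and Fos dimer, is the classical effector of phorbol esters and its site is named the TPA response element. Each runs from 250 bases before to 50 bases after the RefSeq start in GRCm38.p6, read along the gene, with the match to TGANTCA in capitals. They are the envelope genes with the smallest p for the difference whose window holds the letters. Rptn encodes repetin, at chr3:93393449-93393748 (+); Flg lies at chr3:93273296-93273595 (+); Sprr2h, a small proline-rich protein gene, lies at chr3:92385435-92385734 (+).
Rptn: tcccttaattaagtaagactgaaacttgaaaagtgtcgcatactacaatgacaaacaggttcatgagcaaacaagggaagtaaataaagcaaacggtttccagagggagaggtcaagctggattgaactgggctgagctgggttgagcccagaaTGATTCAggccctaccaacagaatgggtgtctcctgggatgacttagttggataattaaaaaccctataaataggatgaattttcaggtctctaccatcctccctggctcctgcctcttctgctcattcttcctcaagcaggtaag
Flg: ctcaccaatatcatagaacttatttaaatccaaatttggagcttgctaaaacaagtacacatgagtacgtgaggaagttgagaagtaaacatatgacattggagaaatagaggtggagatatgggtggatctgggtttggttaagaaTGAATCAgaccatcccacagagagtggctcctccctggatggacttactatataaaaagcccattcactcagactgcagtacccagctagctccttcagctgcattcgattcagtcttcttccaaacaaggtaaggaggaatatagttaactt
Sprr2h: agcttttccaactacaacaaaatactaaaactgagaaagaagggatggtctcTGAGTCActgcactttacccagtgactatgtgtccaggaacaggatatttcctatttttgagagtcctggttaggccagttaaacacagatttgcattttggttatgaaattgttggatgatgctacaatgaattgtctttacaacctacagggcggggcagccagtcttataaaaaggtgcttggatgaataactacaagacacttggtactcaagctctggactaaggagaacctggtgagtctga
The match starts 96 bases before the start of Rptn, 103 before that of Flg and 198 before that of Sprr2h. Counting either strand, with no overlap with the interferon motif searched below, 13 of the 34 envelope genes found in the RefSeq table held it (38.2%). The share was 7.01% of 12210 genes tested, 8.97% of 27025 genes of the table, 11.5% of genes with a higher difference and 8.35% of those with a lower one. A match describes letters and is not a measured binding site. The list holds Lce and Sprr2 genes with near-identical neighbours, so the promoters counted may not be independent. Of 18 AP-1 and immediate early genes, 2 were higher and 1 lower in the difference, against 8.70% and 3.95% of all genes. Their median difference was 0.54 and their median gap -0.28. Rptn was at 35.3 and 12.0 CPM in Control DMBA, 22.1 and 13.6 with DMBA, 7.14 and 9.31 in Control DMBA/TPA, then 337 and 631 with DMBA/TPA. The difference of Rptn was 6.28 ± 0.74 (edgeR adjusted p = 0.00402) with a gap of -1.52. Sprr2h had a difference of 8.58 ± 1.10 with a gap of -2.87.

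Keratins of thickened epidermis had large differences that the gap enlarged. Krt16 (chr11:100246091-100248902), a keratin of wounded and hyperplastic epidermis, was at 142 and 152 CPM in Control DMBA, 295 and 191 with DMBA, 19.9 and 27.0 in Control DMBA/TPA, then 2881 and 9228 with DMBA/TPA. The Control DMBA/TPA libraries were the lowest and the DMBA/TPA libraries the highest, with no overlap. The difference of Krt16 was 7.29 ± 0.72 (edgeR adjusted p = 0.00279), the gap -2.65 ± 0.49 and the direct change 4.64. With both acetone groups taken as 1 group, its adjusted p was 0.0560. Krt6b had a difference of 11.34 ± 1.08 and a gap of -3.41. Krt6a and Krt6b are near-identical, so reads between them may be split. Krt6a had a difference of 4.95 ± 0.77 with a gap of -2.07, and its adjusted p was 0.0559 without DMBA 2 and 0.111 with 1 acetone group. Of the 6 keratins on this list 3 were higher and 1 lower. The lower gene, Krt80, named after its values were seen, had a difference of -0.71 ± 0.18 and a gap of 0.51. Krt17, also a keratin of stressed epidermis, was not called, with 0.34 ± 0.30 and a gap of -1.11.

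Alarmins, proteins that signal damage or kill microbes, formed another group with positive differences. Of 21 measured, 11 were higher and 0 lower, against 8.70% and 3.95% of all genes. The median difference of the alarmin list was 5.05 and its median gap -0.53. With groups under 3 counts set to 3, the median difference was 4.02. S100a9, a calcium-binding protein of neutrophils and inflamed keratinocytes, was at 0.381 and 0.484 CPM in Control DMBA, 1.94 and 1.09 with DMBA, 0.0697 and 0.330 in Control DMBA/TPA, then 71.8 and 133 with DMBA/TPA. The difference of S100a9 was 7.10 ± 0.91 (edgeR adjusted p = 0.00520) and its gap -1.01. Chil1, a chitinase-like protein, had a called gap of -2.72 inside its difference of 5.05 ± 0.56. Its DMBA libraries, at 45.4 and 24.0 CPM, lay above Control DMBA at 7.29 and 14.02, and its adjusted p with 1 acetone group was 0.170. Without Control DMBA 2 the higher count of the alarmin list was 2. The neutrophil marker list includes S100a9 and S100a8, so its level is not a measure separate from the alarmins. The summed level of its 4 measured genes was 1.26 to 4.55 CPM in the 6 other libraries and 143.5 and 244.5 in DMBA/TPA. S100a9 alone gave 71.8 and 133 CPM of those DMBA/TPA sums. The part of neutrophils in the alarmin values was not tested.

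Among the interleukin-1, interleukin-36 and interleukin-20 families, 7 of 18 genes were higher and 0 lower, against 8.70% and 3.95% of all genes. The median difference of the families was 0.91 and the median gap 0.25. Il1f9, which encodes interleukin-36γ, was at 14.9 and 19.7 CPM in Control DMBA, 24.6 and 21.9 with DMBA, 22.8 and 15.3 in Control DMBA/TPA, then 94.7 and 112 with DMBA/TPA. Its difference was 2.01 ± 0.29 (edgeR adjusted p = 0.00734) beside a gap of 0.14. Il24, a cytokine that acts on keratinocytes, had 16, 3, 1 and 702 counts in the acetone and DMBA groups and in the acetone and DMBA/TPA groups, in that order. Ligands of the EGF receptor drive keratinocyte growth. Of 15 ligands and receptors 4 were higher (Tgfa, Areg, Hbegf and Nrg1) and 1, Btc, lower, against 8.70% and 3.95% of all genes, with a median difference and a median gap of 0.20 each. The gap of Btc was 1.61 and its direct change -0.08, and with 1 acetone group the list had 4 higher and 0 lower. Tgfa had a difference of 1.20 ± 0.22 with a gap of 0.34, and its adjusted p was 0.0803 without DMBA 2, 0.0732 without Control DMBA/TPA 1 and 0.0535 without Control DMBA/TPA 2. The count of higher genes on that list was 0 without any of these 3 libraries.

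Antioxidant and matrix genes were also among those with positive differences. Slc7a11, the cystine importer that feeds glutathione synthesis, was at 1.23 and 1.65 CPM in Control DMBA, 1.81 and 0.761 with DMBA, 1.04 and 0.714 in Control DMBA/TPA, then 18.1 and 27.4 with DMBA/TPA. The difference of Slc7a11 was 4.89 ± 0.60 (edgeR adjusted p = 0.00484) and its gap -0.73. Gsta4, a glutathione transferase that clears lipid aldehydes, had a difference of 5.48 ± 0.82 with a gap of 0.27, and Hmox1, haem oxygenase, had 1.65 ± 0.24 with a called gap of 0.93. Of the 21 genes of the NRF2 list, named for the transcription factor of oxidant defence, 7 were higher and 0 lower. The median difference of the NRF2 list was 0.85 and its median gap -0.22. Of 23 matrix proteases and inhibitors 13 were higher and 1 lower, with a median difference of 2.30 and a median gap of -0.74. Over all genes, 8.70% were higher and 3.95% lower. Serpinb6c had a difference of 6.71 ± 0.74 and a gap of -1.29. Mmp13, a collagenase, had 66, 10, 2 and 536 counts in the 4 groups, in the order used for Il24. Without 1 library the matrix count ran from 3 (without Control DMBA/TPA 1) to 16 (without DMBA/TPA 1), and the NRF2 count from 3 (without DMBA 2 or Control DMBA/TPA 2) to 13 (without DMBA/TPA 1). Tmprss11g, a serine protease of surface epithelia, had a difference of 5.55 ± 0.58 with a gap of -0.24, and Glrx, glutaredoxin, had 3.25 ± 0.38 with a gap of -0.29.

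**Figure D2:**
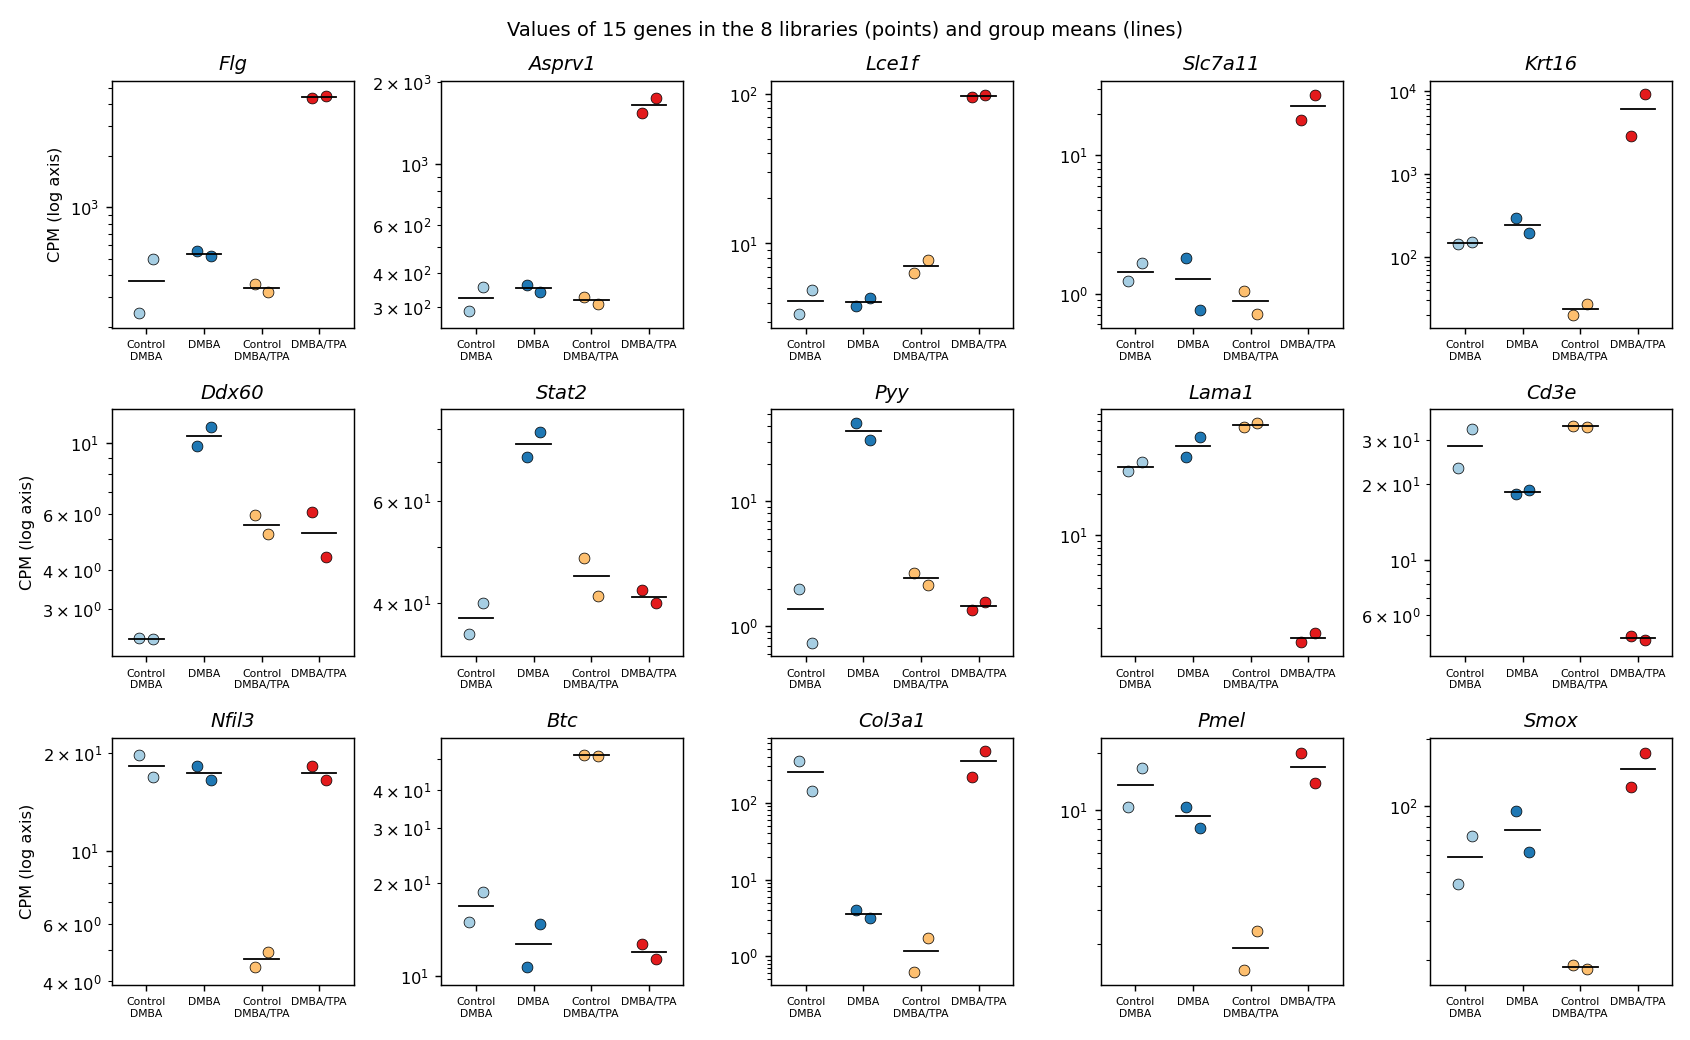
CPM of 15 genes in each of the 8 libraries (points, log axis) with the mean of each group of 2 (lines). Flg, Asprv1, Lce1f and Slc7a11 are high in DMBA/TPA alone, Ddx60, Stat2 and Pyy are highest in DMBA, Lama1 and Cd3e are lowest in DMBA/TPA, and in Nfil3, Btc, Pmel and Smox the Control DMBA/TPA libraries lie apart from the other acetone group.

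Genes of the interferon response had negative differences, and both responses held called genes. Of the 25 measured, 10 were called higher after DMBA, against 0.190% of all genes, and 11 higher and 2 lower after DMBA/TPA, against 22.4% and 18.3%. Ddx60 (chr8:61928087-62038244), a helicase of antiviral defence, was at 2.43 and 2.42 CPM in Control DMBA, 9.82 and 11.3 with DMBA, 5.92 and 5.16 in Control DMBA/TPA, then 6.05 and 4.38 with DMBA/TPA. The DMBA libraries were the highest and did not overlap with any other, and the treated and acetone libraries of the DMBA/TPA pair overlapped. Ddx60 changed by 2.12 ± 0.22 after DMBA and by -0.09 ± 0.21 after DMBA/TPA, so the difference was -2.20 ± 0.30 (edgeR adjusted p = 0.00624). Its gap of 1.19 was called, and with 1 acetone group its adjusted p was 0.225.

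Stat2 (chr10:128270559-128292849), the transcription factor subunit that carries the type I interferon signal, had a small gap. It was at 35.4 and 40.0 CPM in Control DMBA, 71.4 and 79.0 with DMBA, 47.9 and 41.1 in Control DMBA/TPA, then 42.1 and 40.0 with DMBA/TPA. Its difference was -1.11 ± 0.17 (edgeR adjusted p = 0.00823) with a gap of 0.24. Xaf1, a pro-apoptotic interferon target, had a difference of -1.90 ± 0.27 with a gap of 0.37. Usp18, which shuts off interferon receptor signalling, had -2.55 ± 0.37 with a called gap of 1.32; its DMBA response of 0.94 was not called and its DMBA/TPA response of -1.61 was, and its adjusted p with 1 acetone group was 0.207. Oasl2, an antiviral oligoadenylate synthetase-like protein, was called in both responses, at 3.30 after DMBA and 1.24 after DMBA/TPA. The difference of Oasl2 was -2.06 ± 0.42 (adjusted p = 0.0227) with a gap of 0.03, and leaving out DMBA 1, DMBA 2, Control DMBA/TPA 1 or Control DMBA/TPA 2 gave adjusted p-values of 0.0643, 0.0926, 0.0933 and 0.0522. Isg15, the ubiquitin-like interferon product, was called in both responses, and its difference of -1.14 ± 0.41 was not (adjusted p = 0.0994; gap 0.02).

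Over the list of 25 measured interferon response genes, 0 were higher and 9 lower in the difference, against 3.95% of all genes lower. The medians were 1.68 for the DMBA response, 1.02 for the DMBA/TPA response, -0.84 for the difference and 0.05 for the gap. Of 14 interferon-induced GTPases, which attack vacuoles of intracellular microbes, 5 were lower and 0 higher, with a median difference of -1.20 and a median gap of 0.37. Irgm1 of that family was at 6.24 and 6.30 CPM in Control DMBA, 16.7 and 18.8 with DMBA, 9.55 and 7.50 in Control DMBA/TPA, then 7.67 and 7.75 with DMBA/TPA. The difference of Irgm1 was -1.64 ± 0.24 (edgeR adjusted p = 0.00734) with a gap of 0.44. Iigp1, another of the family, had a difference of -4.21 ± 0.66 and a gap of 1.86, and its adjusted p with 1 acetone group was 0.111. The interferon list kept at least 4 lower genes without any 1 library (4 without DMBA 2, Control DMBA/TPA 1 or Control DMBA/TPA 2) and had 11 without DMBA/TPA 1; the GTPase list had 2 to 7, the lowest without DMBA 2.

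The MHC class I pathway, which shows peptides to killer T cells, had 7 of 14 genes lower and 0 higher. Over all genes, 3.95% were lower and 8.70% higher. The medians of this pathway were smaller, at 0.37 after DMBA, -0.25 after DMBA/TPA, -0.56 for the difference and -0.06 for the gap. H2-Q7, a non-classical class I molecule, was at 90.5 and 88.6 CPM in Control DMBA, 112 and 118 with DMBA, 95.4 and 87.6 in Control DMBA/TPA, then 62.4 and 53.9 with DMBA/TPA. The DMBA libraries were above and the DMBA/TPA libraries below both acetone groups. The difference of H2-Q7 was -1.02 ± 0.15 (edgeR adjusted p = 0.00722) with a gap of 0.03; H2-Q genes are similar enough that reads may be split among them. The count of lower genes was 1 without DMBA 2 or Control DMBA/TPA 1.

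The promoters of 3 interferon genes are shown because the interferon-stimulated response element, the site bound by the complex that holds STAT2, can be read in them. The windows are as above and the match to GAAA, any 2 bases, GAAA, on either strand, is in capitals. Ddx60 lies at chr8:61927837-61928136 (+), Stat2 at chr10:128270248-128270547 (+) and Ifih1, which encodes the RNA sensor MDA5, at chr2:62646206-62646505 (-).
Ddx60: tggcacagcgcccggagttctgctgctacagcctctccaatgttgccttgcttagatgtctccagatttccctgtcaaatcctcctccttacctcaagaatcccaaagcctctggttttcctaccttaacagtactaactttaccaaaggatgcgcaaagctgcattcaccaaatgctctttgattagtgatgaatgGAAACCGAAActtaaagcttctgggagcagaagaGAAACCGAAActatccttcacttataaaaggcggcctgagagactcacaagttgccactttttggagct
Stat2: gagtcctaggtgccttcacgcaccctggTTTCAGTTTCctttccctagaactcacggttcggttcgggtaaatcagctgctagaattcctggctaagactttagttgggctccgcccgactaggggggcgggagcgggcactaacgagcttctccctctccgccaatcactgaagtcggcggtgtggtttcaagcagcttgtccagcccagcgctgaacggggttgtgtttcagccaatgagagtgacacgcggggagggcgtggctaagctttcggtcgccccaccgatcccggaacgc
Ifih1: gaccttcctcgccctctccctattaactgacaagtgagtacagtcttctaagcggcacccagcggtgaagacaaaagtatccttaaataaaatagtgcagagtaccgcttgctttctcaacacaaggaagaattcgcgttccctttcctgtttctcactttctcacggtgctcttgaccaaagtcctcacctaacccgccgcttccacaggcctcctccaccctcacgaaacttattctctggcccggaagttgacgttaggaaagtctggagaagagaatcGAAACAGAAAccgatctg
Ddx60 holds 2 matches, starting 53 and 19 bases before the start, Stat2 holds 1 on the opposite strand beginning 222 bases before the start, and Ifih1 holds 1 at base 33 after it. The motif was found in 10 of the 18 interferon response genes with a promoter in the table (55.6%) and 8 of 9 GTPases (88.9%), against 3.66% of the genes tested and 3.99% of all genes of the table. It stood in 7.78% of the genes with a lower difference and 3.67% of those with a higher one. The GTPases are related genes, so their promoters may not be independent of each other. Ifih1 had a difference of -1.46 ± 0.27 (edgeR adjusted p = 0.0155) with a gap of 0.59, made of 0.47 after DMBA and -0.99 after DMBA/TPA.

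The gene with the smallest p of those named was Lama1 (chr17:67697259-67822647), the laminin α1 chain of basement membranes. It was at 29.9 and 34.7 CPM in Control DMBA, 38.1 and 53.4 with DMBA, 63.7 and 67.8 in Control DMBA/TPA, then 1.57 and 1.84 with DMBA/TPA. Its difference was -5.77 ± 0.27 (edgeR adjusted p = 0.00032), with a called gap of 1.03 and a direct change of -4.74. Pyy, the gene of the gut hormone peptide YY, had its change on the DMBA side. It was at 1.99 and 0.741 CPM in Control DMBA, 42.2 and 31.1 with DMBA, 2.68 and 2.14 in Control DMBA/TPA, then 1.34 and 1.57 with DMBA/TPA. Pyy changed by 4.75 ± 0.40 after DMBA and -0.73 ± 0.41 after DMBA/TPA, giving a difference of -5.47 ± 0.56 (adjusted p = 0.00303) with a gap of 0.82.

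Other large negative differences came from the DMBA/TPA side with varied gaps. Ifitm6, an interferon-induced transmembrane protein gene, had -7.20 ± 0.54 with a gap of 2.71, and its adjusted p with 1 acetone group was 0.0799. Dab1, a reelin signalling adaptor, had -4.80 ± 0.53 with a gap of 1.51, and Cdh4, a cadherin, had -3.09 ± 0.28 with a gap of 1.09. Sult5a1, a sulfotransferase, fell in DMBA/TPA to 26.3 and 21.8 CPM against 98.7 to 184.5 CPM in the other libraries. The difference of Sult5a1 was -3.13 ± 0.28 (edgeR adjusted p = 0.00241) with a gap of 0.47. Kcnma1, a potassium channel, had -3.50 ± 0.47 with a gap of 0.27, and Gpc3, a glypican, had -2.32 ± 0.36 with a gap of -0.03.

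Most T cell genes had negative differences, and the median gap of their list was near 0. Cd3e, a chain of the T cell receptor complex, was at 23.3 and 33.2 CPM in Control DMBA, 18.3 and 18.9 with DMBA, 34.2 and 33.8 in Control DMBA/TPA, then 4.95 and 4.78 with DMBA/TPA. The difference was -2.20 ± 0.24 (edgeR adjusted p = 0.00373) with a gap of 0.27. Prf1, the pore protein of killer lymphocytes, was at 8.82 and 10.9 CPM in Control DMBA, 6.43 and 7.34 with DMBA, 15.1 and 15.8 in Control DMBA/TPA, then 0.511 and 0.470 with DMBA/TPA. The difference of Prf1 was -4.45 ± 0.29 (adjusted p = 0.00173) with a gap of 0.65. Trdc, the constant segment of the γδ T cell receptor δ chain, had -4.01 ± 0.45 with a gap of 0.56. Of 25 measured T cell genes, 10 were lower and 0 higher, against 3.95% and 8.70% of all genes. Their median difference was -1.08 and their median gap -0.03. The difference was positive in 5 of the 25. After DMBA/TPA, 16 were called lower and 3 higher, against 18.3% and 22.4% of all genes. In bulk samples, fewer cells of a type and less RNA per cell cannot be told apart.

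The Skint genes, keratinocyte genes named for their role in selecting epidermal γδ T cells, were also lower, 6 of 8 measured against 3.95% of all genes. The Skint gap was positive, with a median of 0.94 beside a median difference of -1.63. Skint7 was at 18.3 and 18.4 CPM in Control DMBA, 27.3 and 26.4 with DMBA, 40.6 and 29.2 in Control DMBA/TPA, then 15.7 and 8.89 with DMBA/TPA. The difference of Skint7 was -2.05 ± 0.36 (edgeR adjusted p = 0.0127) with a gap of 0.93, and its adjusted p was 0.0531 without DMBA 2, 0.0581 without Control DMBA/TPA 1 and 0.150 with 1 acetone group. The count of lower Skint genes was 0 without DMBA 2 or Control DMBA/TPA 1, while the T cell count had a lowest value of 6. Langerhans cell and MHC class II genes gave 0 calls of 14 in the edgeR fit used throughout and with limma, 1 with DESeq2, and 2 higher with edgeR without the low-count filter or without DMBA/TPA 1, and 2 had an unadjusted edgeR p under 0.05, with a median difference of -0.01 and a median gap of 0.19.

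**Figure D3:**
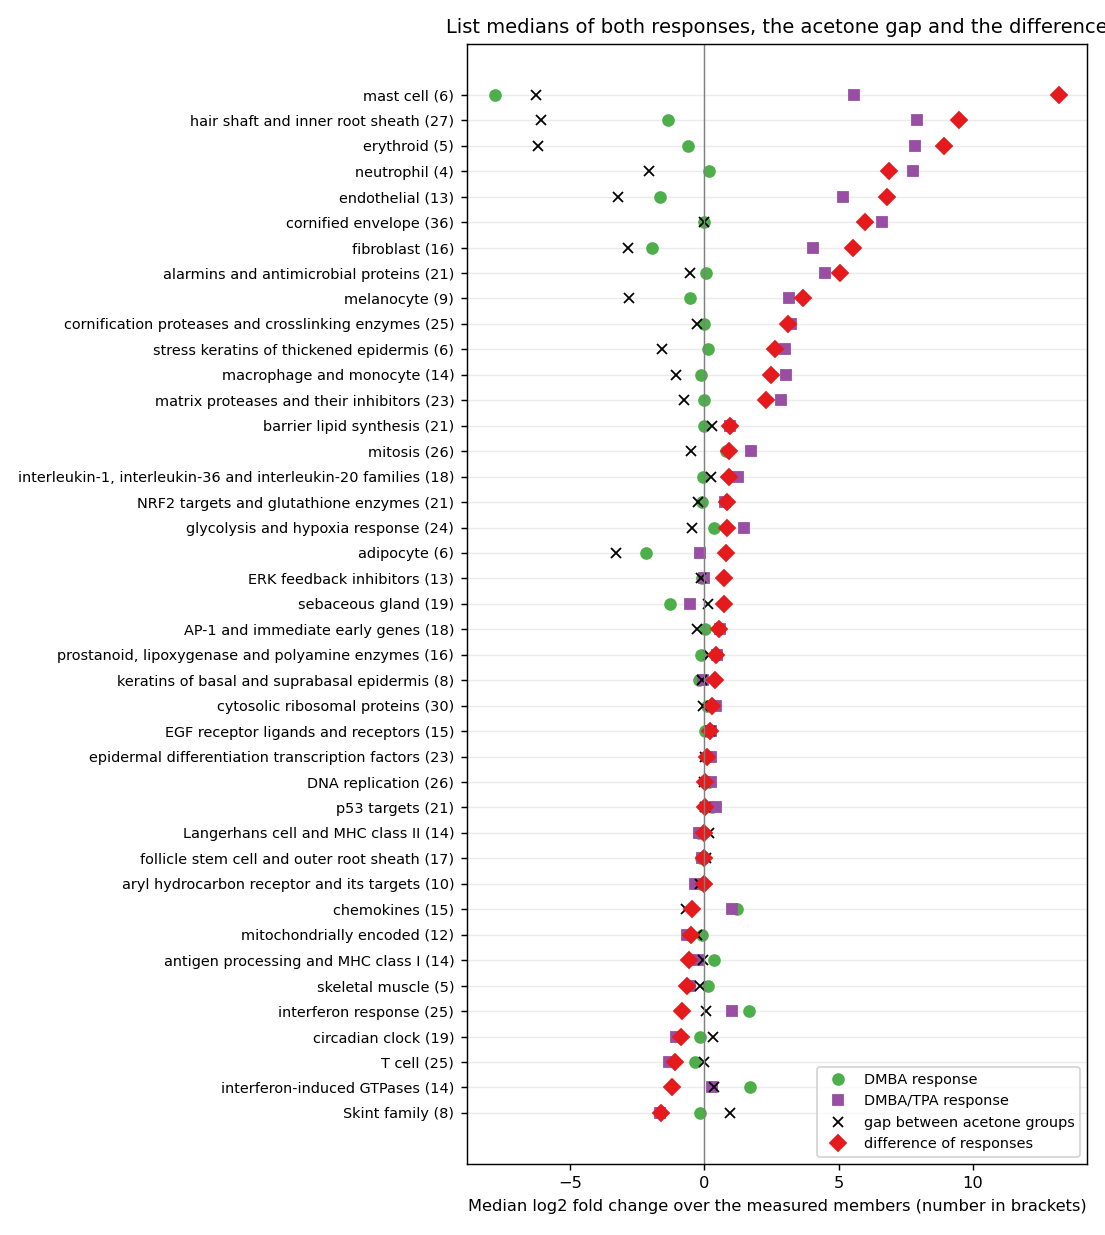
Median log2 fold change of each gene list for the DMBA response (circles), the DMBA/TPA response (squares), the gap between the acetone groups (crosses) and the difference (diamonds), with the number of measured members in brackets. Cornified envelope genes have a median gap of 0.00 and a difference of 5.99, while hair shaft genes have a gap of -6.07 and a difference of 9.48.

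Several lists had large differences that were carried in good part by the gap. Nfil3 (chr13:52967209-52981073), a repressor of the circadian clock, is the clearest single gene. It was at 19.6 and 16.8 CPM in Control DMBA, 18.2 and 16.5 with DMBA, 4.43 and 4.92 in Control DMBA/TPA, then 18.2 and 16.5 with DMBA/TPA. The treated groups were alike, with a direct change of 0.00, and the Control DMBA/TPA libraries were low. The difference of Nfil3 was 1.96 ± 0.21 (edgeR adjusted p = 0.00350), equal in size to its gap of -1.96 ± 0.15. Btc, the ligand betacellulin, was its counterpart among lower genes. It was at 51.6 and 51.4 CPM in Control DMBA/TPA and between 10.7 and 18.8 in the other libraries, which gave a difference of -1.70 ± 0.25 (adjusted p = 0.00775), a gap of 1.61 and a direct change of -0.08. With 1 acetone group the adjusted p was 0.999 for Nfil3 and 0.947 for Btc.

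Of 19 clock genes, 6 were lower and 1, Nfil3, higher, against 3.95% and 8.70% of all genes. The median difference of the clock list was -0.86 and its median gap 0.32. Per2, a core clock repressor, had a difference of -1.70 ± 0.18 (edgeR adjusted p = 0.00350) with a gap of 0.50. It was at 68.7 and 69.0 CPM in Control DMBA, 108 and 100.2 with DMBA, 88.1 and 107 in Control DMBA/TPA, then 41.2 and 49.6 with DMBA/TPA. The labels give no hour of harvest. The lower count ran from 2 (without Control DMBA/TPA 2 or DMBA 2) to 12 (without DMBA/TPA 1).

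Genes of mitosis and glycolysis had positive median differences with negative median gaps. Of 26 mitosis genes, 4 were higher (Cdc20, Aurka, Cenpa and Kif11) and 1, Ttk, lower, against 8.70% and 3.95% of all genes. With 1 acetone group, 0 mitosis genes and 1 glycolysis gene were called with edgeR. Their medians were 0.80 after DMBA, 1.75 after DMBA/TPA, 0.92 for the difference and -0.50 for the gap, and the gap was larger in size than the direct change in 19 of the 26. Cenpa, the centromeric histone, had a difference of 1.39 ± 0.28 with a gap of -0.98, and adjusted p-values of 0.0693, 0.0955 and 0.0854 without DMBA 1, DMBA 2 and Control DMBA/TPA 2. Mki67, the proliferation marker, had 0.46 ± 0.30 (adjusted p = 0.321) with a gap of -0.38. The mitosis count was 0 without DMBA 1, DMBA 2 or Control DMBA/TPA 2 and 15 without DMBA/TPA 1. Of 26 DNA replication genes, only 1 was higher and 2 lower, against the same 8.70% and 3.95% of all genes, with a median gap of -0.02. The median difference of 0.04 became -0.08 with scaling by total counts and -0.02 with 1 acetone group. Of 24 genes of glycolysis and the hypoxia response, 12 were higher and 0 lower, with a median difference of 0.83 and a gap of -0.45. Hk2, the hexokinase that starts glycolysis, was at 68.4 and 72.2 CPM in Control DMBA, 94.4 and 76.4 with DMBA, 24.8 and 26.8 in Control DMBA/TPA, then 134 and 243 with DMBA/TPA. The difference of Hk2 was 2.59 ± 0.35 (adjusted p = 0.00603) with a gap of -1.45 and an adjusted p of 0.252 with 1 acetone group. The glycolysis count was 1 without Control DMBA 2, without either DMBA library and without either Control DMBA/TPA library.

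Hair shaft and inner root sheath genes, markers of growing follicles, had a wide gap between the acetone groups. Of 27 measured, 21 were higher and 1 lower, with a median difference of 9.48, a median gap of -6.07 and a median direct change of 1.90. The gap was larger than the direct change in 24 of them, and 7 had a group under 3 counts. Krt34, a hair keratin, had 915, 355, 1 and 1492 counts in the acetone and DMBA groups and in the acetone and DMBA/TPA groups, in that order. The summed level of the list was 2720 CPM in DMBA/TPA 1 and 716 in DMBA/TPA 2, against 715 to 1507 in the other libraries. The sum follows its most abundant members and did not separate the groups. By gene, 14 of the 27 had a gap called lower, and 23 were called higher after DMBA/TPA, against 4.28% and 22.4% of all genes. The count was 2 without Control DMBA/TPA 1, 1 with limma voom and 1 with 1 acetone group. Tchh, the trichohyalin gene of follicles, and the deiminase gene Padi3, which stand on the cornification lists, had gaps of -5.67 and -7.04; both are named after their values were seen, and the part of follicles in the cornification counts was not tested.

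Melanocyte genes, whose products sit in growing follicles as well as in epidermis, were alike in shape. Pmel, the melanosome fibre protein, was at 10.4 and 16.6 CPM in Control DMBA, 10.5 and 8.12 with DMBA, 1.46 and 2.33 in Control DMBA/TPA, then 19.97 and 13.9 with DMBA/TPA. Its difference was 3.68 ± 0.45 (edgeR adjusted p = 0.00481), with a gap of -2.81 and a direct change of 0.87. Of the 9 measured melanocyte genes, 7 were higher, and 0 were with 1 acetone group or 1 without DMBA 2.

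Markers of dermal cells and of red blood cells (the erythroid list) had positive differences with negative gaps. The DMBA response was called in 2 of 16 fibroblast genes, both lower, and in none of the endothelial, mast cell or erythroid genes with edgeR. The DMBA/TPA response was called higher in 13 fibroblast, 11 endothelial, 3 mast cell and 3 erythroid genes. Over all genes, 0.0771% were called lower after DMBA and 22.4% higher after DMBA/TPA. Of 16 fibroblast genes 12 were higher, of 13 endothelial genes 11, of 6 mast cell genes 4 and of 5 erythroid genes 3, with 0 lower in each. The median differences were 5.52, 6.82, 13.2 and 8.94 and the median gaps -2.83, -3.22, -6.26 and -6.20; with groups under 3 counts set to 3 counts, the mast cell median was 8.22 with a gap of -4.25 and the erythroid median 5.37 with a gap of -2.80. Col3a1 (chr1:45311538-45349706), a fibrillar collagen of dermal fibroblasts, was at 355 and 143 CPM in Control DMBA, 4.04 and 3.15 with DMBA, 0.627 and 1.73 in Control DMBA/TPA, then 215 and 479 with DMBA/TPA. The Control DMBA and DMBA/TPA libraries overlapped and were high, and the DMBA and Control DMBA/TPA libraries were low. Col3a1 changed by -6.12 after DMBA and by 8.14 after DMBA/TPA, so that its difference was 14.26 ± 0.94 (edgeR adjusted p = 0.00173) with a gap of -7.67. With 1 acetone group the adjusted p was 0.168, and 0 of the 16 fibroblast genes and 1 of the 13 endothelial genes were called. In the fit of 4 groups the same direct change was called higher in 10 of the 16 and 9 of the 13, against 8.90% of all genes.

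The summed fibroblast level was 1760 and 1060 CPM in Control DMBA, 511 and 434 with DMBA, 327 and 343 in Control DMBA/TPA, then 1905 and 4567 with DMBA/TPA. Endothelial genes summed to 8.43 and 9.51 CPM in Control DMBA/TPA, to 62.3 and 117 CPM with DMBA/TPA, and to between 15.6 and 28.0 CPM in the remaining 4 libraries. The endothelial markers Cdh5, Tie1 and Emcn had 0 counts in Control DMBA/TPA, and Cdh5 had 85, 2, 0 and 329 counts in the acetone and DMBA groups and in the acetone and DMBA/TPA groups, in that order. In the macrophage and monocyte list 7 of 14 genes were higher and 1, Adgre1, lower, with a median gap of -1.05. Adgre1 had -2.21 ± 0.31 with a gap of 0.86, and with 1 acetone group 2 genes of the list were higher and 0 lower. The part of these cells in the differences of other genes was not tested. The fibroblast count without 1 library was 9 to 15 and the endothelial count 7 to 12.

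**Figure D4:**
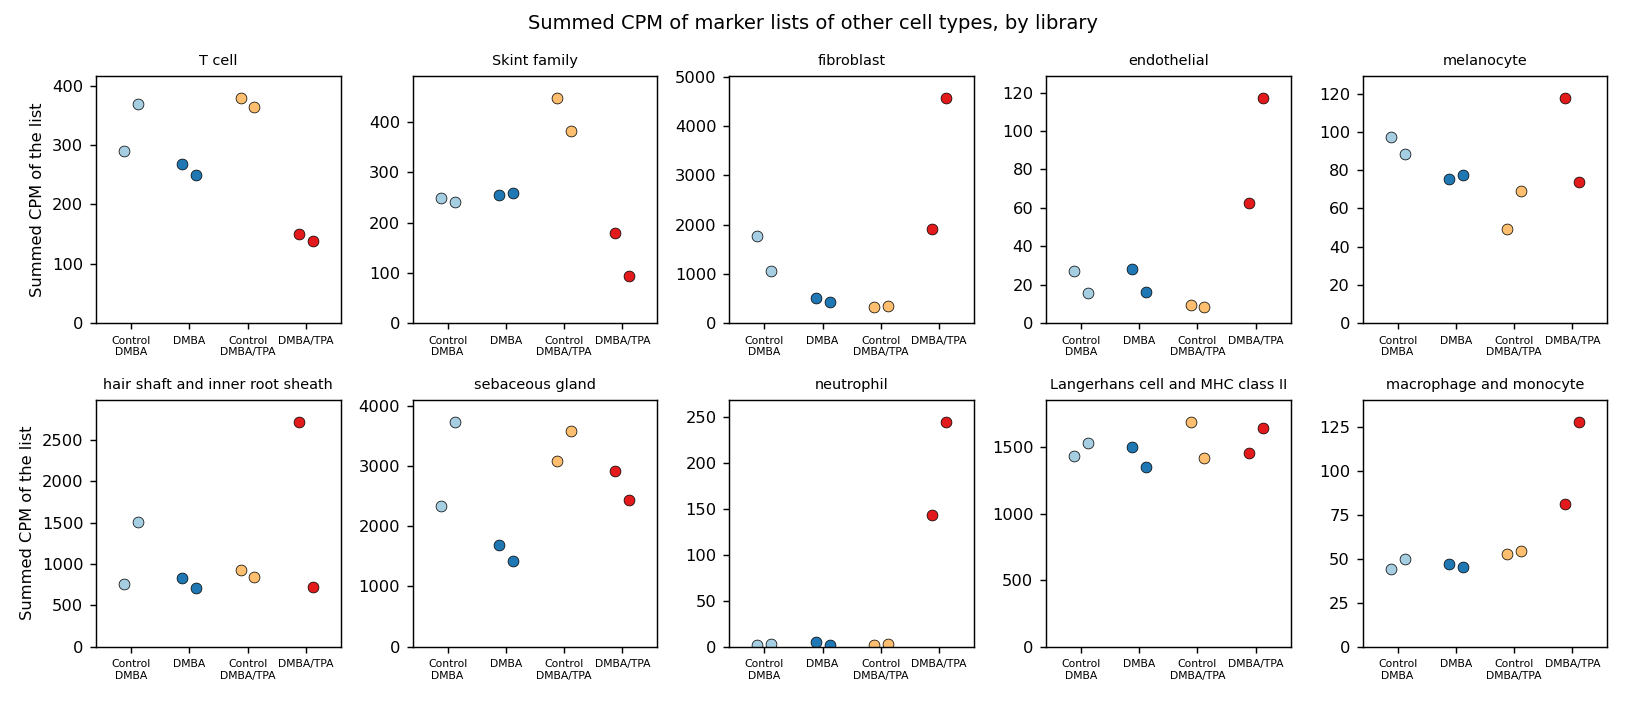
Summed CPM of 10 marker lists of other cell types in each of the 8 libraries, with axes from 0. T cell and Skint sums are lowest in DMBA/TPA, and fibroblast, endothelial and neutrophil sums are highest in DMBA/TPA. The neutrophil list includes S100a8 and S100a9. Hair shaft sums, which follow the most abundant members, are high in DMBA/TPA 1 but not in DMBA/TPA 2. Without DMBA/TPA 1 the median difference of the hair shaft genes was 7.08.

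Of the 30 genes called in both responses, 4 had opposite signs: Col3a1, Col1a2, Ccdc80 and Mfap4. All 4 are genes of connective tissue, fell after DMBA and rose after DMBA/TPA. Col1a2, the α2 chain of type I collagen, had a difference of 9.92 ± 0.85 with a gap of -4.06, Ccdc80 5.58 ± 0.53 with -1.91 and Mfap4 10.80 ± 1.22 with -5.33. Among the genes called with the same sign in both, Igsf9b, an adhesion molecule gene, was at 6.97 and 6.95 CPM in Control DMBA, 75.6 and 68.7 with DMBA, 6.03 and 10.1 in Control DMBA/TPA, then 26.8 and 38.0 with DMBA/TPA. The difference of Igsf9b was -1.38 ± 0.34 (adjusted p = 0.0379) with a gap of 0.22, and without Control DMBA 1, Control DMBA 2, DMBA 1, DMBA 2 or Control DMBA/TPA 2 its adjusted p was between 0.0668 and 0.118. Cyp2g1, a cytochrome P450 gene, was lowered by both treatments, by 3.20 after DMBA and 1.39 after DMBA/TPA. Its difference was 1.81 ± 0.49 (adjusted p = 0.0478) with a gap of 0.23, and its adjusted p was 0.133, 0.0972, 0.171, 0.158 and 0.0726 without Control DMBA 2, DMBA 1, DMBA 2 and then each of Control DMBA/TPA 1 and 2.

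Several genes tied to this protocol did not pass the test. Hras, the gene DMBA typically mutates in mouse skin, was at 115 to 165 CPM over all libraries and had a difference of 0.27 ± 0.19 (edgeR adjusted p = 0.358) with a gap of -0.19. Cdkn1a, the p53 target p21, had 0.26 ± 0.16 (adjusted p = 0.303) with a gap of -0.09. Cyp1a1, which activates DMBA, had 0.99 ± 0.55 (adjusted p = 0.250) with a gap of 0.13. Odc1 and Ptgs2, the ornithine decarboxylase and cyclooxygenase genes long used as markers of TPA action, had 2.20 ± 0.73 (adjusted p = 0.0823; gap 0.67) and 1.55 ± 0.57 (adjusted p = 0.107; gap 0.71). With 1 acetone group both were called, at adjusted p = 0.0349 for Odc1 and 0.0404 for Ptgs2, and of 17 alternatives 3 called Odc1 and 4 called Ptgs2. Odc1 was at 74.2 and 282 CPM in DMBA/TPA against 19.7 to 41.5 elsewhere, and the spread within DMBA/TPA was wide. The interval that these errors allow is broad, so a miss of the threshold does not show that the responses were equal.

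The number of calls depended on single libraries. It was 467 without DMBA 2, 550 without Control DMBA/TPA 1, 669 without Control DMBA/TPA 2, 948 without DMBA 1 and 1104 without Control DMBA 2. It was 1736 without DMBA/TPA 2, 2265 without Control DMBA 1 and 5360 without DMBA/TPA 1. In these fits the lone library of a group is assumed to vary like the others. No gene called in the full fit was called with the opposite sign, and 322 of the 1692 higher and 84 of the 768 lower genes were called without each of the 8 libraries. Of these, 38 and 27 had a gap under 0.5 in size. Among the 135 called genes named by rule, 66 were called without each library, including Flg, Asprv1, Casp14, Lce1f, Slc7a11, Lama1, Pyy, Prf1 and Cd3e, and 70 were called with 1 acetone group. Among those not called with 1 acetone group were also Col1a2, Pmel and Adgre1, at edgeR adjusted p = 0.0817, 0.620 and 0.0840.

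**Figure D5:**
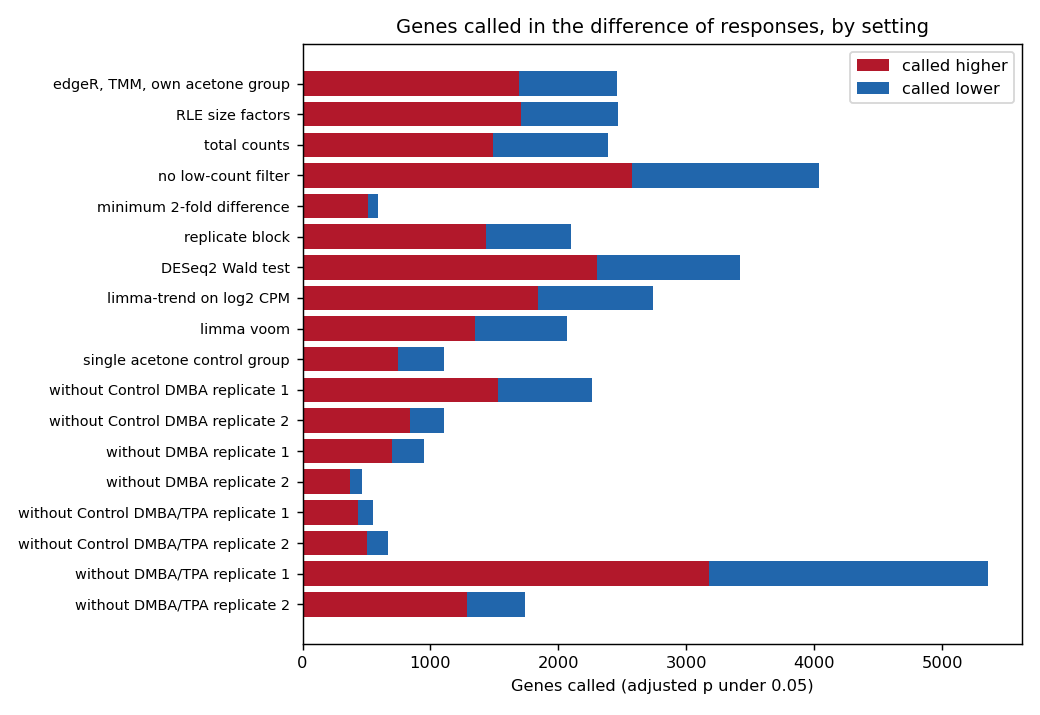
Number of genes called higher (red) and lower (blue) in the difference of responses under the main setting and 17 alternatives. The total was 2460 in the main setting, 1106 when both acetone groups were taken as 1, 467 without DMBA 2 and 5360 without DMBA/TPA 1.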

How the data were processed

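Epidermal RNA of 8 mouse samples was sequenced from ribosomal RNA-depleted, directional libraries, per the labels' protocols. The deposited tables hold raw counts per Ensembl gene, 1 table per sample, made by the authors. The submitters' processing notes name build mm10 and the tools TopHat2, Bowtie2, cutadapt and FastQC; their versions, and how reads were assigned to genes and strands, are not stated in the labels, so overlapping and antisense genes may share reads. The 5 summary rows of each table were dropped, which left 35.2% to 43.4% of its total as gene counts, 26300400 to 36002886 per library. GENCODE M21 matched 55141 of 55487 gene identifiers. RefSeq GRCm38.p6 gave the promoters.

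Groups followed the labels. Counts were filtered with filterByExpr (minimum count 10, minimum total 15; 19450 genes kept), scaled by TMM and fitted with edgeR 4.0.16 in R 4.3.3 as 4 group means. The quasi-likelihood F test was applied to each contrast, with Benjamini-Hochberg adjustment over all genes tested and 4 residual degrees of freedom. A standard error is the log2 change divided by the square root of F. A fold change of a gene with a group under 3 counts depends on the fit's prior, and such genes are named by their counts. Replicates differed beyond counting error. The code was tested on simulated counts. It recovered 34 of 100 genes given a 2-fold difference and 83 of 100 given a 4-fold one. Among 18887 unchanged genes, 3 were called.

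Genes were named by rule. Of the genes called and averaging 10 CPM or more, these were, per direction, the 10 largest differences, the 8 largest with a gap under 0.5 in size and the 5 largest called in both responses with opposite or with the same sign; up to 3 members of each list by p and a fixed set were added. Predicted genes, pseudogenes, small RNAs and receptor segments were left out. Genes named outside it were chosen after their values were seen. Members, lists and tests were chosen with earlier results of these data known, and a list is described by counts and medians with no test. Alternatives were RLE and total-count scaling, no filter, a minimum fold of 2, a replicate block, DESeq2 1.42.0, limma 3.58.1 (trend and voom), 1 shared acetone group and leaving out each library.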

Additional observations from a re-analysis of the deposited data

How the results depend on the processing

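Scaling by RLE factors or by total counts gave 2470 and 2389 calls, against 2460, and total counts moved the share called higher from 68.8% to 62.2% and the median of all genes to -0.10. Without a low-count filter there were 4041 calls, 2575 higher and 1466 lower. Testing against a minimum fold of 2 left 591, 515 higher and 76 lower. With both acetone groups taken as 1 group, the test was of the direct change and gave 1106 calls, 749 higher and 357 lower. These kept 499 of the 1692 higher and 219 of the 768 lower genes. DESeq2 gave 3419 calls, limma-trend 2740 and voom 2066. Leaving out each library in turn gave 467 to 5360 calls, 369 to 3176 higher and 98 to 2184 lower. No gene named by rule changed sign past the threshold under any of these settings. The replicate block gave 2097 calls, 1434 higher and 663 lower; same-numbered libraries correlated in their deviations at -0.152 to 0.035, so the numbers are not taken to pair the samples. Precision is limited by 2 libraries per group, which leave 4 residual degrees of freedom; no alternative of lower depth was run on the 26300400 to 36002886 gene counts per library. The cause of these changes was not tested.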
